A study of Mus musculus with 8 samples.

Results

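The genes described here make up the machinery that copies DNA and supplies its building blocks: 42 genes in 8 role groups, taken from an array that carries probes for 27670 gene names. A gene was included by name, through all its non-control probes. The rule uses no measured value, but the names were chosen with earlier results of these data known. Of the 42, 40 were printed on the array under their current symbol, Gins2 as 4833427B12Rik and Rfc1 as Recc1. Together they had 63 probes, with 1 probe for 24 genes and more than 1 for the other 18. All 42 were among the 17996 genes tested, and 41 were well above background in every group of cells. The exception was Ccne2, which was not well above background in naive cells.

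The samples were CD4 T cells sorted from spleen and lymph nodes, pooled, of C57BL/6 males aged 15 weeks, with 2 arrays for each of 4 groups named Treg (regulatory T cells), CD44hi, CD44lo and naive. CD44 is an adhesion receptor that rises on T cells that have met antigen. The series title names Ox40-cre/ROSA-YFP mice, in which the Ox40 promoter drives the Cre recombinase and cells that have expressed Ox40, a costimulatory receptor of activated T cells, are marked by YFP. The labels state no treatment, and give neither the sort gates nor the YFP status of any group, so both can differ between the groups in ways not stated.

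Replication starts where the origin recognition complex, Cdc6 and Cdt1 load the MCM2-7 helicase onto DNA during G1, and where Cdc7 and cyclin kinases later fire it. Primase and the polymerases alpha, delta and epsilon then copy both strands behind a sliding clamp, while ribonucleotide reductase, thymidylate synthase and thymidine kinase supply the nucleotides. Many of these genes are targets of E2F transcription factors, which are held back in resting lymphocytes and released when a T cell enters the cell cycle.

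The values below are log2 signals relative to the 75th percentile of the same array, so a value of 0 is a probe at that percentile. They compare groups for one gene, and not one gene with another, since probes differ in brightness for reasons of their own. A difference was called where limma's adjusted p was under 0.05 in a fit over all 17996 genes. The 75th percentile of the signal lay between 639 and 1337, lowest on naive array 2, and between 59.2% and 68.8% of probes were well above background. The arrays lay on 2 slides, each with 1 array of every group. Slide 1 held array 1 of Treg and CD44hi with array 2 of CD44lo and naive, and slide 2 held the others. Within a slide, Treg and CD44hi were thus set against CD44lo and naive arrays of the other number. All 8 T cell markers checked, Cd3e and Cd4 among them, were well above background in every group.

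The letters that E2F factors are known to bind stood close before the start of several of these genes, and 3 such stretches are shown, for Mcm6, Rfc3 and Mcm5, each called between CD44hi and naive. They are the stretches that lie outside the annotated span of their gene. The RefSeq promoter table (GRCm38.p6) held 34 of the 42 genes, with 41 promoters. The letters TTTCCCGC, TTTCGCGC, TTTGCCGC and TTTGGCGC were searched on both strands in the 250 bases before each start. Matches on opposite strands can overlap. Such letters were in 7 of the 41 promoters (17.1%), against 611 of 32851 RefSeq promoters in all (1.86%). The 7 genes were Mcm5, Mcm6, Mcm7, Cdc6, Pola1, Rfc3 and Uhrf1. Mcm7 and Pola1 were called in no comparison, and the other 5 were called between CD44hi and naive. Mcm10, Tk1, Chaf1a and Rrm2, also called there, had no match. Whether the letters go with the calls was not tested. The stretches below read 5′ to 3′ along the gene's strand, with the matched letters in capitals.
Mcm6, chr1:128359719-128359778, minus strand, nearest match 47 bases before the start: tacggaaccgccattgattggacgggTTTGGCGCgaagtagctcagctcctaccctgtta
Rfc3, chr5:151651209-151651244, minus strand, 10 bases before the start: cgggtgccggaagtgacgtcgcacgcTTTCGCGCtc
Mcm5, chr8:75109334-75109393, plus strand, 149 bases before the start, with matches on both strands that overlap: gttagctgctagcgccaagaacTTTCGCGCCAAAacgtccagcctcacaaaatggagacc
A match in this window is a string of letters, and whether a factor binds there was not measured.

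Of the 42 genes, 21 were called in at least 1 of the 6 comparisons between groups and 21 in none. That share was not counted over all genes, of which 27.8% were called in CD44hi against naive alone. Every call against naive or CD44lo was of a higher level in Treg, CD44hi or CD44lo, with the exception of Rpa1, which was lower in Treg than in naive. CD44hi had the highest group mean for 34 genes, Treg for 3 (Pold1, Pold2 and Rfc4) and naive for 5 (Cdt1, Cdc7, Rfc1, Rpa1 and Rpa3). These orders rest on the brightest probe of each gene, and other probes of some genes gave another order. For Cdc7 the other probes put CD44hi above naive by 0.63 and 0.57. The second Pold1 probe put Treg below CD44hi, at a difference of -0.05. On the second Prim2 probe CD44hi was below naive, at a difference of -0.52. Another Pola2 probe put CD44lo highest, 1.19 above naive, and the second Mcm3 probe put CD44lo above naive by 0.37. The lowest mean was in CD44lo for 19 genes, in naive for 19 and in Treg for 4. These orders of group means were not counted over all genes. The 21 genes with no call include much of the core fork machinery: 4 of the 6 MCM2-7 subunits, the polymerase delta subunits, the clamp Pcna and 4 of the 5 clamp loader subunits. Their group means spanned from 0.21 (Pold1) to 1.71 (Pola1) on the log2 scale, so some spanned more than called genes such as Rpa1 (0.71) or Mcm5 (1.32).

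**Figure D1:**
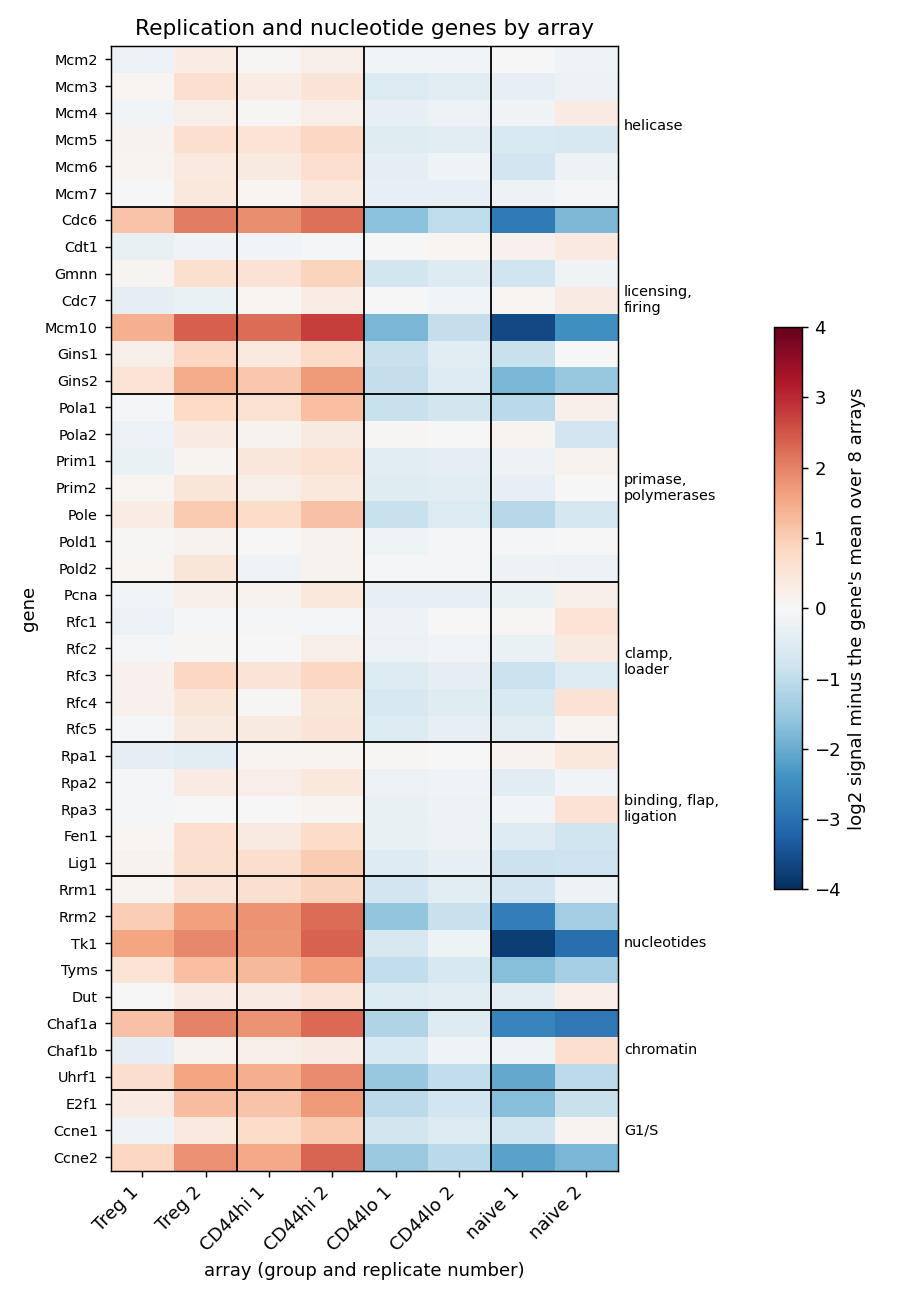
Rows are the 42 genes by role and columns the 8 arrays, and colour gives the log2 signal minus the gene's mean over the 8 arrays. Mcm10, Tk1, Chaf1a, Cdc6, Rrm2 and Ccne2 are red in Treg and CD44hi and blue in CD44lo and naive, while rows such as Mcm2, Pold1 and Rfc2 stay pale.

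Against naive cells, CD44hi cells were higher in 19 of the 42 genes and lower in none by limma's adjusted p, where 27.8% of all genes tested were called in either direction and 13.2% were called higher. The differences of the 19 ran from 1.00 (Mcm6) to 5.53 (Mcm10) on the log2 scale. Over the 42 genes the median difference was 0.85, against -0.15 over all genes tested. Both CD44hi arrays were above both naive arrays in 32 genes (23.3% of all genes) and below them in 3 (39.3%). With arrays centred on their median 17 of the 42 were called higher and 1 lower, where 5573 of all 17996 genes were called lower. With slide as a block 18 of the 19 calls were made, the exception being Ccne1 (adjusted p = 0.0578). Each of the 19 was higher on both slides, where the median over the 42 was 0.46 on slide 1 and 1.18 on slide 2. Slide 1 set CD44hi array 1 against naive array 2, and slide 2 set CD44hi array 2 against naive array 1.

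Treg cells were higher than naive cells in 15 of the 42 genes and lower in 1, Rpa1, where 21.9% of all genes were called, 11.6% higher and 10.3% lower. The differences of the 15 ran from 1.04 (Fen1) to 5.14 (Tk1), and the median over the 42 was 0.59, against -0.20 over all genes. Both Treg arrays were above both naive arrays in 25 genes (21.4% of all genes) and below them in 4 (42.1%). Slide as a block left all 16 calls in place, and the median over the 42 was 0.25 on slide 1 and 1.11 on slide 2. Without Treg array 2 the calls came to 9, all of them higher in Treg. Centring the arrays on their median in place of the 75th percentile gave 15 genes higher and 3 lower. That scaling moved the median over all genes by the most in CD44hi against naive, to -0.42.

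CD44lo cells differed from naive cells in 2 of the 42 genes (4.76%), Tk1 and Chaf1a, both higher in CD44lo. That is near the share over all genes, of which 5.29% were called, 4.53% higher and 0.761% lower. The median over the 42 genes was -0.10, against -0.13 over all genes. Both CD44lo arrays were above both naive arrays in 11 genes (18.6% of all genes) and below them in 14 (36.0%). The median over the 42 was -0.12 on slide 1 and 0.05 on slide 2. The call on Chaf1a was lost with slide as a block (adjusted p = 0.0534) and the call on Tk1 was not (0.0104). Without naive array 1 there were 9 calls, 2 higher and 7 lower in CD44lo, but 7191 of the 17996 genes were then called, 4800 of them lower, which is a larger share than among the 42. There was 1 call without naive array 2, and 1 without CD44lo array 2.

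Set against CD44lo, CD44hi cells were higher in 18 genes and lower in none, where 9.37% of all genes were called, 6.06% higher and 3.31% lower. The differences ran from 0.93 (Prim1) to 3.87 (Mcm10), with a median over the 42 of 0.90 against -0.04 over all genes. CD44hi arrays lay above CD44lo arrays without overlap in 39 genes (30.2% of all genes) and below them in 1 (37.6%). The median over the 42 was 0.74 on slide 1 and 1.07 on slide 2. The calls on Ccne1, Gmnn, Prim1 and Rfc3 were lost with slide as a block (adjusted p between 0.0601 and 0.0702), leaving 14. The count was 5 without CD44lo array 1, 8 without CD44lo array 2 and 7 without CD44hi array 2.

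Treg cells were higher than CD44lo cells in 9 genes and lower in none, where 5.56% of all genes were called, 3.70% higher and 1.87% lower. The differences ran from 1.68 (Tyms) to 3.29 (Mcm10), with a median over the 42 of 0.74 against -0.07. Both Treg arrays were above both CD44lo arrays in 35 genes (27.1% of all genes) and below them in 3 (37.2%). The median over the 42 was 0.46 on slide 1 and 1.05 on slide 2. Slide as a block left 6, without Gins2, Rrm2 and Uhrf1. No gene was called without Treg array 2 or without CD44lo array 1, and 4 were without CD44lo array 2.

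**Figure D2:**
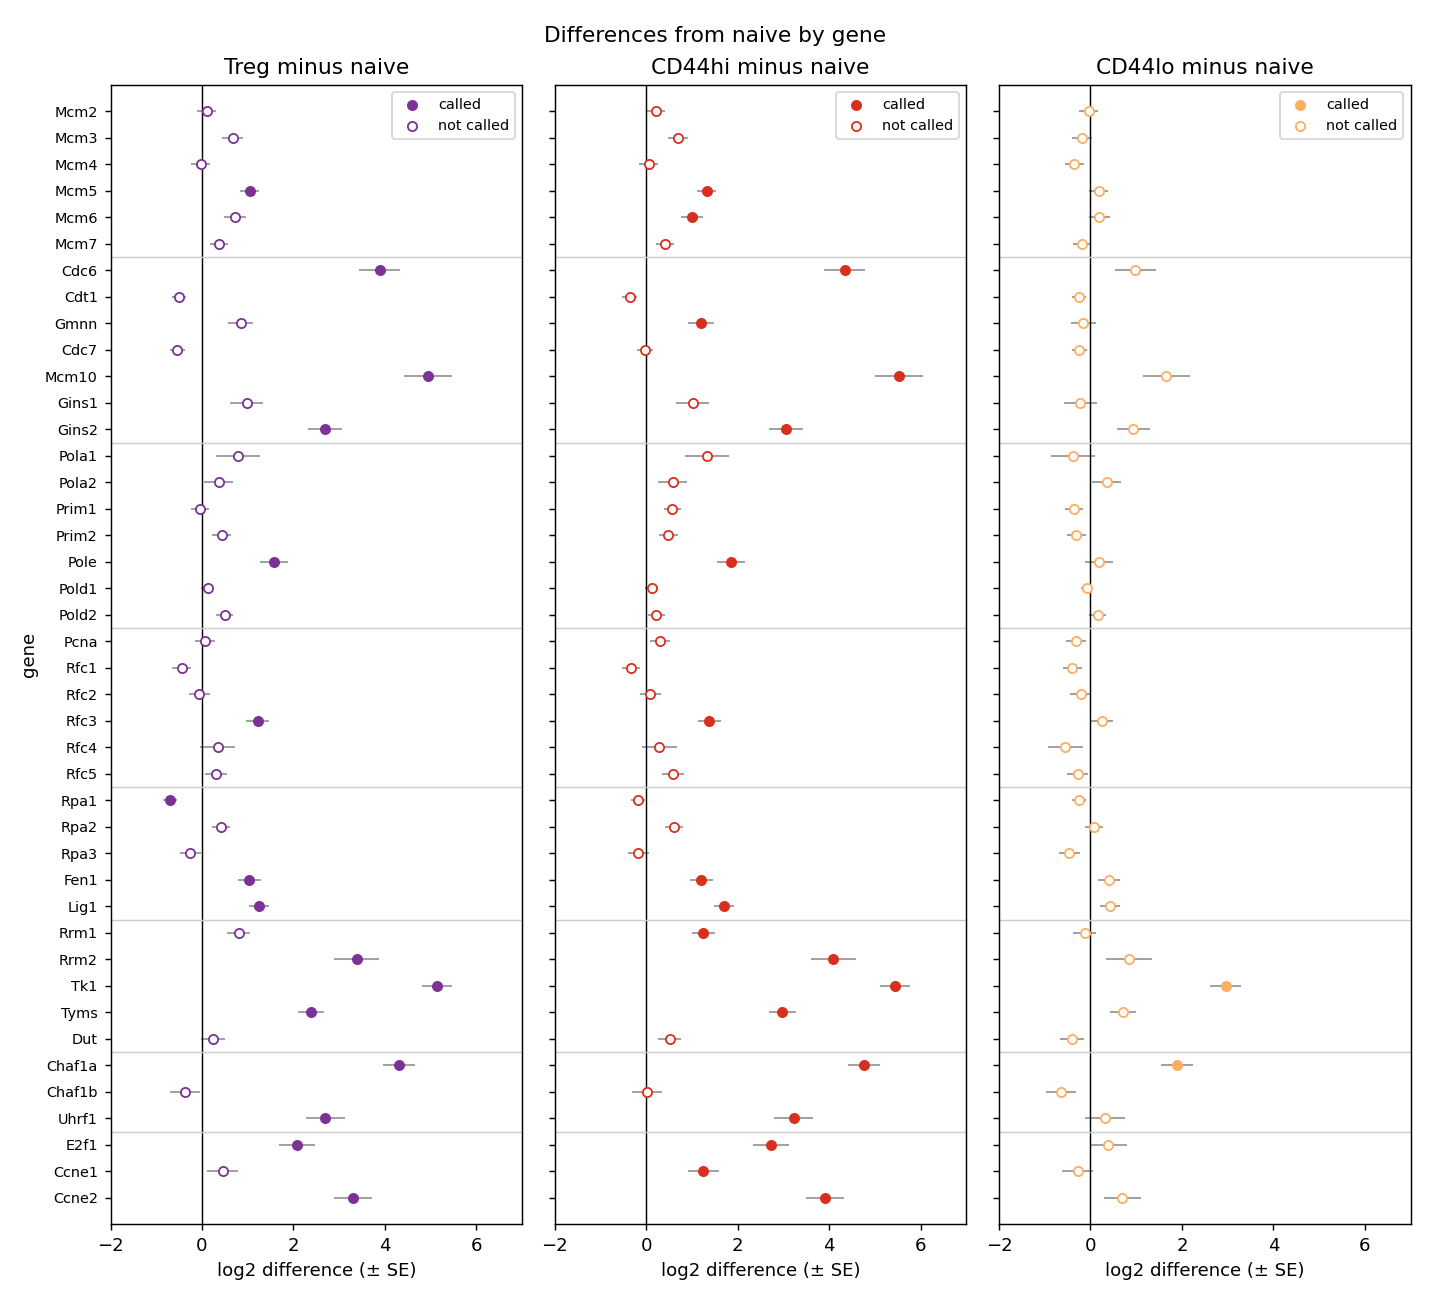
Each point is the log2 difference of 1 gene from naive cells with its standard error, for Treg, CD44hi and CD44lo in panels from left to right, and filled points were called by limma. Filled points lie to the right for 15 genes in Treg, 19 in CD44hi and 2 in CD44lo, and Rpa1 is the filled point below 0 in Treg.

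The MCM2-7 helicase, the hexameric ring that unwinds DNA at the fork, was called in part. Of its 6 subunits, CD44hi cells were higher than naive cells in Mcm5 and Mcm6, and Treg cells in Mcm5. Mcm5 read 2.68 and 3.22 in Treg, 3.08 and 3.37 in CD44hi, 2.05 and 2.11 in CD44lo, and 1.92 and 1.89 in naive. The Treg and CD44hi arrays all lay above the CD44lo and naive arrays and overlapped each other. The difference from naive was 1.04 ± 0.21 (SE, n = 2 each, limma adjusted p = 0.0161) in Treg and 1.32 ± 0.21 (limma adjusted p = 0.00526) in CD44hi. CD44hi cells were also higher than CD44lo cells in Mcm5, by 1.14 ± 0.21 (limma adjusted p = 0.0219).

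Mcm6 had 5.22 and 5.48 in Treg, 5.47 and 5.79 in CD44hi, 4.71 and 4.93 in CD44lo, and 4.36 and 4.90 in naive. Its difference between CD44hi and naive was 1.00 ± 0.24 (limma adjusted p = 0.0220), and naive array 2 stood nearer to the CD44lo arrays than to naive array 1. Mcm3 had 2.97 and 3.58 in Treg, 3.19 and 3.41 in CD44hi, 2.37 and 2.47 in CD44lo, and 2.56 and 2.65 in naive. Treg and CD44hi arrays again stood above the others, without a call. Mcm2, the narrowest of the ring, had 1.61 and 2.12 in Treg, 1.88 and 2.08 in CD44hi, 1.72 and 1.72 in CD44lo, and 1.85 and 1.67 in naive. Both CD44hi arrays lay above the CD44lo and naive arrays, and the Treg arrays overlapped every other group. Mcm4 and Mcm7 were not called in any comparison, with group means that spanned 0.41 and 0.59.

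Among the 7 genes for licensing and firing of origins, Mcm10, Cdc6 and Gins2 were higher in both Treg and CD44hi cells than in naive cells, and Gmnn was higher in CD44hi. Mcm10, which recruits polymerase alpha to the unwound origin, had the widest span of the 42 genes. It read 0.18 and 1.16 in Treg, 0.98 and 1.53 in CD44hi, -3.06 and -2.18 in CD44lo, and -4.85 and -3.71 in naive. Every Treg and CD44hi array stood above every CD44lo array, which in turn stood above the naive arrays. The difference from naive was 4.95 ± 0.52 in Treg, or 30.8-fold (n = 2 each, limma adjusted p = 0.000969), and 5.53 ± 0.52 in CD44hi, or 46.2-fold (limma adjusted p = 0.000506). From CD44lo the differences were 3.29 ± 0.52 in Treg and 3.87 ± 0.52 in CD44hi. CD44lo exceeded naive by 1.66, which was not called.

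Cdc6, the loader of the helicase, read -1.73 and -0.83 in Treg, -1.01 and -0.65 in CD44hi, -4.51 and -3.87 in CD44lo, and -5.68 and -4.66 in naive. Treg and CD44hi overlapped, and both were apart from CD44lo and naive. Its differences from naive were 3.89 ± 0.45 in Treg (limma adjusted p = 0.00142) and 4.34 ± 0.45 in CD44hi (limma adjusted p = 0.000748), and its second probe gave 3.46 in Treg and 3.96 in CD44hi. Gins2, a subunit of the GINS complex that completes the active helicase, read -0.81 and 0.14 in Treg, -0.28 and 0.35 in CD44hi, -2.31 and -1.87 in CD44lo, and -3.17 and -2.88 in naive. The order by array was the same as for Mcm10, with CD44lo between naive and the other two. Gins2 differed from naive by 2.69 ± 0.37 in Treg (limma adjusted p = 0.00317) and by 3.06 ± 0.37 in CD44hi (limma adjusted p = 0.00154).

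Cdt1, the partner of Cdc6 in loading the helicase, ran the other way. It read 3.21 and 3.38 in Treg, 3.41 and 3.45 in CD44hi, 3.50 and 3.60 in CD44lo, and 3.68 and 3.91 in naive. The groups stood in that order with no overlap, over a span of 0.50 in which nothing was called. Gmnn encodes geminin, which binds Cdt1 and blocks a second round of loading. It was higher in CD44hi than in naive by 1.20 ± 0.28 and than in CD44lo by 1.36 ± 0.28, and in Treg its difference from naive was not called. Cdc7, the kinase that fires loaded origins, and Gins1 were not called in any comparison.

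Of the 7 primase and polymerase genes, Pole was called against naive in both Treg and CD44hi. Pole, the catalytic subunit of the leading-strand polymerase epsilon, read 0.87 and 1.62 in Treg, 1.31 and 1.73 in CD44hi, -0.30 and 0.03 in CD44lo, and -0.54 and -0.12 in naive. Treg and CD44hi arrays all stood above CD44lo and naive, which overlapped each other. Pole exceeded naive by 1.58 ± 0.31 in Treg (limma adjusted p = 0.0137) and by 1.85 ± 0.31 in CD44hi (limma adjusted p = 0.00608). A second Pole probe was below background in all 4 groups and gave -0.09 for Treg and 0.53 for CD44hi.

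Pola1, the catalytic subunit of polymerase alpha, read -0.85 and 0.03 in Treg, -0.16 and 0.44 in CD44hi, -1.66 and -1.49 in CD44lo, and -1.85 and -0.55 in naive. The naive arrays lay far apart, and none of its differences was called. Prim1, the small catalytic subunit of primase, read 1.48 and 1.84 in Treg, 2.19 and 2.37 in CD44hi, 1.33 and 1.36 in CD44lo, and 1.53 and 1.88 in naive. CD44hi arrays lay above all others and CD44lo arrays below all others, and CD44hi exceeded CD44lo by 0.93 ± 0.20 (limma adjusted p = 0.0329). Pold1, the catalytic subunit of polymerase delta, had the narrowest span of all, with 3.38 and 3.49 in Treg, 3.36 and 3.49 in CD44hi, 3.18 and 3.28 in CD44lo, and 3.28 and 3.33 in naive. The Treg and CD44hi arrays were level with each other. Pola2, Prim2 and Pold2, the partner subunits, were not called in any comparison.

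Of the 6 genes for the sliding clamp Pcna and its loader, Rfc3 was the one that was called. It read -1.07 and -0.43 in Treg, -0.73 and -0.43 in CD44hi, -1.81 and -1.63 in CD44lo, and -2.12 and -1.81 in naive. Treg and CD44hi arrays lay above all CD44lo and naive arrays. It exceeded naive by 1.22 ± 0.25 in Treg (limma adjusted p = 0.0177) and by 1.38 ± 0.25 in CD44hi (limma adjusted p = 0.00877). This is the gene whose E2F letters stand 10 bases before the start. Rfc4 read 1.27 and 1.59 in Treg, 1.15 and 1.60 in CD44hi, 0.46 and 0.63 in CD44lo, and 0.50 and 1.68 in naive, where the naive arrays spanned nearly the whole range. Rfc5 had 1.54 and 1.95 in Treg, 1.96 and 2.10 in CD44hi, 1.04 and 1.28 in CD44lo, and 1.18 and 1.70 in naive. Its naive arrays overlapped both CD44lo and Treg. Rfc2 read 4.00 and 4.09 in Treg, 4.09 and 4.30 in CD44hi, 3.83 and 3.95 in CD44lo, and 3.79 and 4.42 in naive, again with naive the most spread. Pcna, the clamp itself, read 4.49 and 4.81 in Treg, 4.75 and 5.03 in CD44hi, 4.26 and 4.26 in CD44lo, and 4.34 and 4.83 in naive. CD44lo was lowest, the other 3 groups overlapped, and no difference was called.

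**Figure D3:**
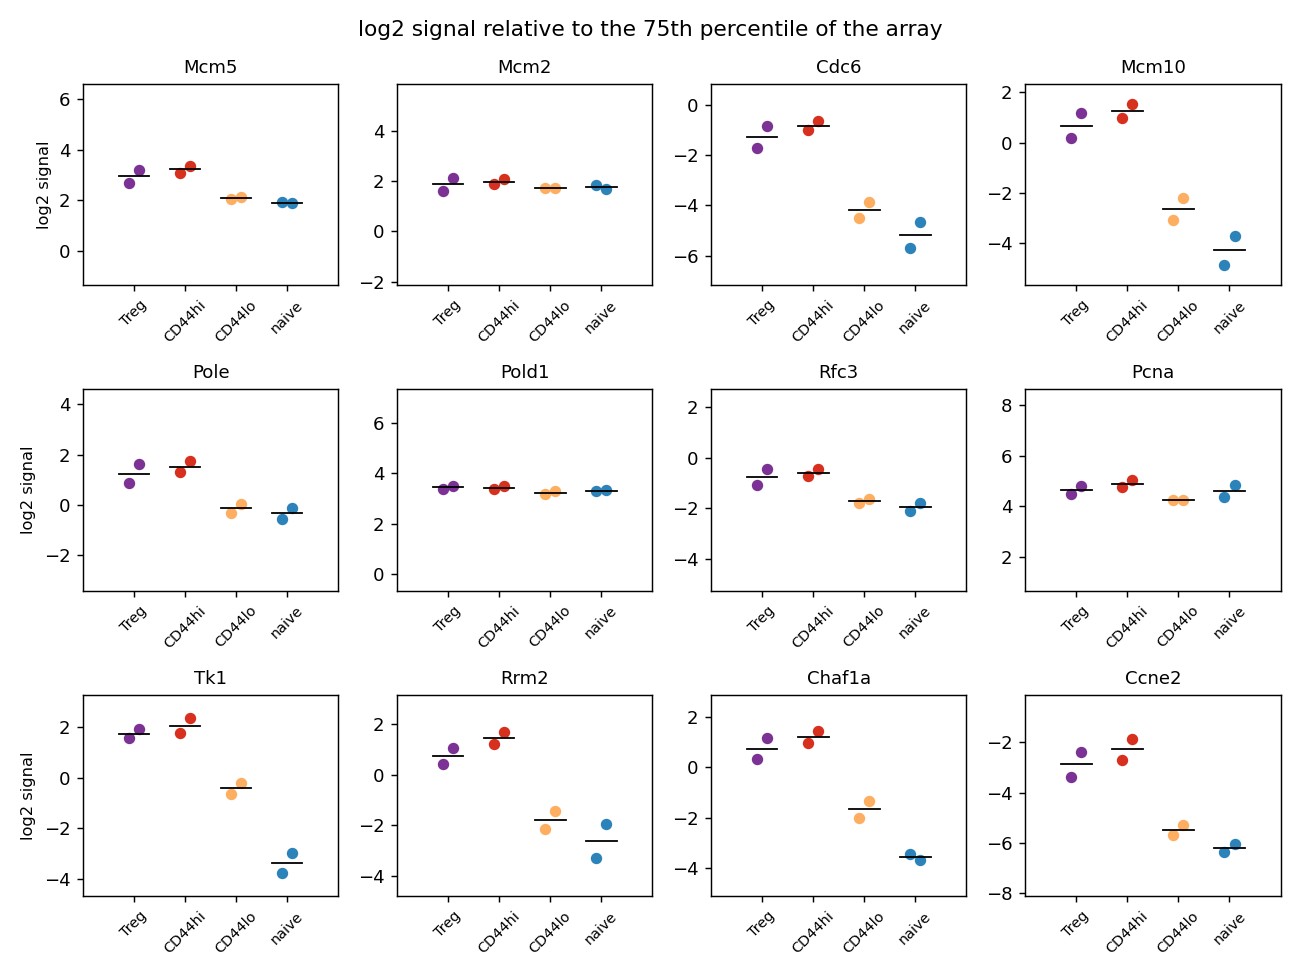
Points are single arrays and the vertical axes the log2 signal relative to the 75th percentile of the array, each panel covering a range of the same height. Lines are group means. Treg and CD44hi lie well above naive in Mcm10, Tk1, Chaf1a and Cdc6, and the groups are near level in Mcm2 and Pold1.

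Of the 5 genes for single-strand binding, flap removal and ligation, Lig1 and Fen1 were higher than naive in both Treg and CD44hi. Lig1, the ligase that seals Okazaki fragments, read 3.06 and 3.55 in Treg, 3.60 and 3.93 in CD44hi, 2.41 and 2.59 in CD44lo, and 2.04 and 2.09 in naive. The 4 groups did not overlap at all, with CD44hi on top. Lig1 exceeded naive by 1.24 ± 0.21 in Treg (limma adjusted p = 0.00829) and by 1.70 ± 0.21 in CD44hi (limma adjusted p = 0.00182). Fen1, the nuclease that removes RNA primer flaps, read 1.30 and 1.90 in Treg, 1.57 and 1.97 in CD44hi, 0.93 and 1.00 in CD44lo, and 0.71 and 0.42 in naive. CD44lo stood between naive and the pair of higher groups. The Fen1 difference from naive was 1.04 ± 0.25 in Treg (limma adjusted p = 0.0292) and 1.21 ± 0.25 in CD44hi (limma adjusted p = 0.0139).

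Rpa1, the large subunit of the single-strand binding protein RPA, was lower in Treg. It read 2.60 and 2.56 in Treg, 3.11 and 3.10 in CD44hi, 3.05 and 3.03 in CD44lo, and 3.15 and 3.42 in naive. Both Treg arrays lay below all 6 others, while in Mcm10 and Tk1 Treg lay with CD44hi above CD44lo and naive. Rpa1 fell by 0.71 ± 0.15 on the log2 scale in Treg relative to naive (limma adjusted p = 0.0186). The call was lost without either Treg array, without either CD44lo array, with no filter on dim probes and with only Treg and naive in the fit, at adjusted p between 0.0541 and 0.126. Rpa3, the small subunit, read 0.86 and 0.94 in Treg, 0.91 and 1.05 in CD44hi, 0.65 and 0.74 in CD44lo, and 0.82 and 1.50 in naive. It was not called, nor was Rpa2, whose means were 1.53 in Treg and 1.12 in naive.

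Nucleotide supply genes had the largest median difference from naive of the role groups with 5 or more genes, 2.39 in Treg and 2.98 in CD44hi. Tk1, the cytosolic thymidine kinase, is best known as an S-phase enzyme. It read 1.59 and 1.93 in Treg, 1.77 and 2.37 in CD44hi, -0.64 and -0.20 in CD44lo, and -3.76 and -3.00 in naive. The naive arrays stood lowest, the CD44lo arrays in the middle, and Treg and CD44hi overlapped on top. Tk1 exceeded naive by 5.14 ± 0.33 in Treg, or 35.2-fold (limma adjusted p = 0.000142), and by 5.44 ± 0.33 in CD44hi, or 43.6-fold (limma adjusted p = 0.000106). In CD44lo it exceeded naive by 2.96 ± 0.33, or 7.76-fold (limma adjusted p = 0.00337), the largest difference of the 42 genes in that comparison. Treg and CD44hi were still above CD44lo, by 2.18 ± 0.33 (limma adjusted p = 0.0159) and by 2.49 ± 0.33 (limma adjusted p = 0.00671).

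Rrm2, the subunit of ribonucleotide reductase whose level limits the enzyme in S phase, read 0.42 and 1.08 in Treg, 1.24 and 1.68 in CD44hi, -2.15 and -1.44 in CD44lo, and -3.32 and -1.96 in naive. CD44lo and naive overlapped, and both were far below the other two. Rrm2 exceeded naive by 3.39 ± 0.49 in Treg (limma adjusted p = 0.00405) and by 4.10 ± 0.49 in CD44hi (limma adjusted p = 0.00151). Its partner Rrm1 differed less, by 1.25 ± 0.25 between CD44hi and naive (limma adjusted p = 0.0129), and was not called in Treg. Tyms, thymidylate synthase, read 2.11 and 2.78 in Treg, 2.86 and 3.22 in CD44hi, 0.58 and 0.95 in CD44lo, and -0.13 and 0.25 in naive, with no overlap between any of the groups. Tyms exceeded naive by 2.39 ± 0.29 in Treg (limma adjusted p = 0.00172) and by 2.98 ± 0.29 in CD44hi (limma adjusted p = 0.000555). Of its other probes, one gave 3.03 for CD44hi and the other 0.86, so the size depends on the probe and the direction does not. Dut, the enzyme that keeps uracil out of DNA, read 3.55 and 3.87 in Treg, 3.88 and 4.08 in CD44hi, 3.01 and 3.11 in CD44lo, and 3.12 and 3.81 in naive. It was not called, and naive array 2 sat among the Treg arrays.

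Of the chromatin genes, Chaf1a and Uhrf1 were called and Chaf1b was not. Chaf1a and Chaf1b encode the large and middle subunits of the CAF-1 complex, which places histones on new DNA. Chaf1a read 0.33 and 1.15 in Treg, 0.96 and 1.45 in CD44hi, -2.02 and -1.33 in CD44lo, and -3.45 and -3.68 in naive. It had the same 3 steps as Tk1. The difference from naive was 4.31 ± 0.35 in Treg (limma adjusted p = 0.000359), 4.77 ± 0.35 in CD44hi (limma adjusted p = 0.000207) and 1.89 ± 0.35 in CD44lo (limma adjusted p = 0.0295). Chaf1b read 1.76 and 2.28 in Treg, 2.37 and 2.46 in CD44hi, 1.54 and 1.96 in CD44lo, and 1.97 and 2.82 in naive. Both CD44hi arrays were above Treg and CD44lo, the naive arrays enclosed those of CD44hi, and nothing was called. Uhrf1, which recruits the maintenance methyltransferase to new DNA, exceeded naive by 2.70 ± 0.43 in Treg and 3.23 ± 0.43 in CD44hi, and its second probe gave 2.76 and 3.26.

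The G1/S regulators E2f1, Ccne1 and Ccne2 were all higher in CD44hi than in naive. Ccne2, cyclin E2, read -3.39 and -2.37 in Treg, -2.68 and -1.87 in CD44hi, -5.68 and -5.29 in CD44lo, and -6.35 and -6.03 in naive, where it was not well above background. Against the lowest signal well above background on the naive arrays it was at least 8.88-fold higher in Treg (limma adjusted p = 0.00194) and at least 13.5-fold higher in CD44hi (limma adjusted p = 0.000810). From CD44lo, where it was measured, it differed by 2.61 ± 0.41 in Treg and 3.21 ± 0.41 in CD44hi. Ccne1, cyclin E1, read 1.23 and 1.81 in Treg, 2.15 and 2.47 in CD44hi, 0.69 and 0.88 in CD44lo, and 0.61 and 1.51 in naive. CD44hi arrays stood above all others, by 1.25 ± 0.34 over naive (limma adjusted p = 0.0355), and Treg overlapped naive. E2f1, an activating E2F factor, exceeded naive by 2.08 ± 0.40 in Treg and 2.72 ± 0.40 in CD44hi.

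Treg and CD44hi cells were not told apart in any of the 42 genes, where 8.19% of all genes were called, 4.15% higher and 4.04% lower. At an unadjusted p under 0.05, limma gave 3, Rpa1, Prim1 and Cdc7, each lower in Treg. The Treg mean was below the CD44hi mean in 39 of the 42 genes, against 54.3% of all genes, and in 35 to 39 under the other scalings. The median difference was -0.28, against -0.04 over all genes, and lay at -0.40 on slide 1 and -0.20 on slide 2. Both Treg arrays lay below both CD44hi arrays in 13 genes (32.1% of all genes) and above them in 0 (27.5%). The lowest difference was that of Ccne1, -0.79, with a 95% interval from -1.60 to 0.02. For Mcm10 the difference of -0.58 had an interval from -1.82 to 0.66, and for Tk1 the difference of -0.31 had one from -1.10 to 0.49. The intervals of both thus hold values beyond a log2 difference of -1, at which Treg would be 2-fold lower. Rpa1 was called lower in Treg with quantile normalization, in the authors' deposited table, with an intensity trend, and without either naive array, and Prim1 in that deposited table.

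**Figure D4:**
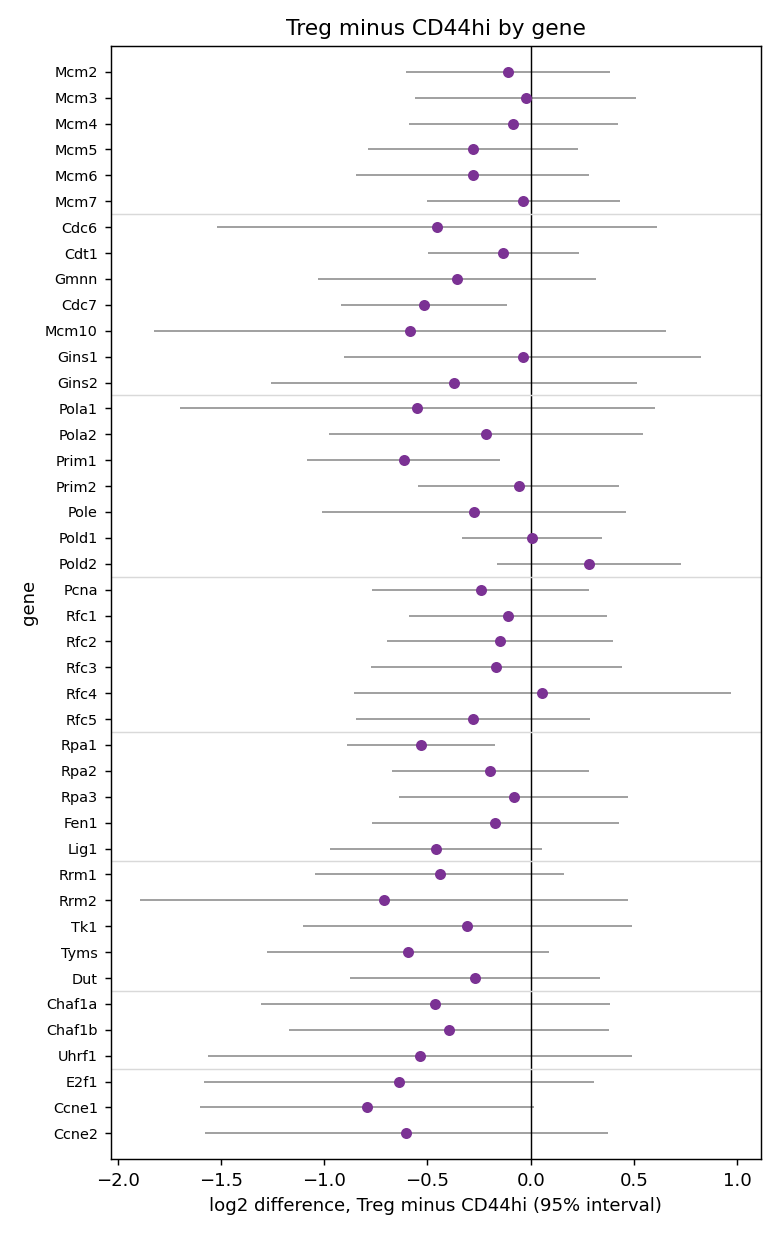
Points are log2 differences of Treg minus CD44hi by gene with 95% intervals from limma. Of the 42 points 39 lie below 0, and none was called.

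Within each group the 2 arrays also differed in these genes as a set. Array 2 was higher than array 1 in 41 of 42 genes in Treg, 41 in CD44hi, 38 in CD44lo and 36 in naive, while over all genes array 2 was higher in 38.9%, 60.2%, 50.8% and 68.5%. The median difference of array 2 minus array 1 over the 42 genes was 0.50 in Treg, 0.29 in CD44hi, 0.18 in CD44lo and 0.44 in naive. It went with the array number and not with the slide, since array 1 was on slide 1 in Treg and CD44hi and on slide 2 in CD44lo and naive. What the number stands for beyond the name of a sample is not given in the labels. In sorted bulk cells, fewer cells in cycle and less RNA per cycling cell cannot be told apart.

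Other cells in the sorts were checked through their markers. The 13 B cell and plasma cell markers had a summed signal, in units of the 75th percentile, of 7.91 to 12.2 in Treg, 8.24 to 13.4 in CD44hi, 2.45 to 3.27 in CD44lo and 0.637 to 0.926 in naive. These sums were higher in Treg and CD44hi, as the replication genes were. Of the 12 tested, 8 were called higher than naive in Treg, 9 in CD44hi and 3 in CD44lo. Jchain, the joining chain of secreted antibodies, read 2.72 and 1.35 in Treg, 3.13 and 1.65 in CD44hi, -2.35 and -2.51 in CD44lo, and -3.18 and -2.59 in naive. Within Treg and within CD44hi, Jchain was higher on array 1 and Cd22 on array 2, on which the replication genes were higher too. Cd79b, a B cell receptor component, read 1.93 and 1.82 in Treg, 0.16 and 0.36 in CD44hi, -0.31 and 0.06 in CD44lo, and -3.04 and -2.005 in naive. It was lowest in naive and highest in Treg. Cd22 was at least 153-fold and Sdc1 at least 5.21-fold higher in CD44hi than in naive. Cd79a, the partner of Cd79b, was not well above background in Treg or CD44hi. The part of these cells in the results was not tested. CD8 T cell and NK cell markers summed to 8.14 to 8.46 in Treg, 7.13 to 7.76 in CD44hi, 9.59 to 10.98 in CD44lo and 18.0 to 22.9 in naive, the reverse of the replication genes. Cd8a was not well above background in CD44hi, CD44lo or naive, while Cd8b1, the other CD8 chain, was bright in every group. It read 2.49 and 2.40 in Treg, 1.77 and 1.75 in CD44hi, 2.36 and 2.30 in CD44lo, and 3.12 and 3.74 in naive. Of the 9 of these markers tested, 5 were called higher and 3 lower in CD44hi than in naive, and 4 higher and 4 lower in Treg. Gzmb, Klrk1 and Klrb1c were among those higher in CD44hi, Gzmb by at least 52.2-fold. Klrd1 and Prf1 went the other way. Klrd1 read 0.51 and 0.04 in CD44hi and 2.60 and 2.93 in naive, and Prf1 -1.82 and -2.31 in CD44hi and 1.52 and 0.54 in naive. Myeloid markers summed to between 0.449 and 1.34 and erythroid and platelet markers to between 0.324 and 0.715 over the groups. The erythropoietin receptor gene Epor was 2.16-fold higher in CD44hi than in naive. Of the myeloid markers, 9 of 13 were tested, and Lyz2 was 6.36-fold higher in CD44hi than in naive while Itgax was lower by 1.80 on the log2 scale. Of the 8 T cell markers, 1 was called between CD44hi and naive, Zap70, a kinase of T cell receptor signalling, which was 1.55-fold higher in CD44hi.

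Genes that act beside the 42 were higher only in part. The further replication genes, 33 of them and none among the 42, held 7 that were higher and 2 that were lower in Treg than in naive, and 7 higher and 4 lower in CD44hi. The checkpoint adaptor Clspn was at least 11.2-fold higher in CD44hi than in naive, the firing factor Ticrr at least 14.0-fold, and the origin subunit Orc1 by 6.61-fold or more. Pole2, another subunit of polymerase epsilon, went against Pole and was called lower than naive, at a difference of -0.999 in CD44hi and -1.35 in Treg. Orc5, Timeless and Mcm9 were the others called lower in CD44hi, and Mcm9 was the other called lower in Treg. Of the 35 further nucleotide genes, Treg had 4 higher and 3 lower than naive, and CD44hi 2 higher and 5 lower. Those 7 calls in each are a share under that of all genes (21.9% in Treg, 27.8% in CD44hi). Pnp, which degrades purine nucleosides, was 3.41-fold higher in CD44hi than in naive, while Ada, adenosine deaminase, was lower by 1.51 and Impdh1, a guanine synthesis enzyme, by 1.37 on the log2 scale.

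G1/S cyclins, kinases and E2F factors held 9 higher and 1 lower of 24 in Treg against naive, and 9 higher and 2 lower in CD44hi. Over all genes 11.6% were called higher and 10.3% lower in Treg, and 13.2% higher and 14.5% lower in CD44hi. Ccna2, the S and G2 phase cyclin, was 74.1-fold higher in CD44hi than in naive, and of the repressor E2Fs, E2f8 was at least 25.0-fold higher and E2f7 at least 22.3-fold. Of 17 cell cycle inhibitors and quiescence genes tested, Treg had 4 higher and 3 lower than naive, and CD44hi 3 higher and 6 lower. Their median difference between CD44hi and naive was -0.28, against -0.15 over all genes tested. The 3 higher in CD44hi were Cdkn2b, at least 14.7-fold, Cdkn1a, at least 5.97-fold, and Cdkn2c, 6.73-fold. Of 20 replication checkpoint and repair genes, 8 were higher and 0 lower in Treg than in naive, and 9 higher and 4 lower in CD44hi, among them Rad54l of homologous recombination, which was 23.7-fold higher in CD44hi than in naive. Wee1, a kinase that restrains entry into mitosis, was at least 3.72-fold higher.

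Nearly all of the mitosis genes were called. Of 28, those higher than naive numbered 26 in Treg, 27 in CD44hi and 6 in CD44lo, and those higher than CD44lo numbered 23 in Treg and 28 in CD44hi. Their median difference from naive was 3.87 in Treg, 4.96 in CD44hi and 1.42 in CD44lo, beside 0.59, 0.85 and -0.10 for the replication and nucleotide genes. These medians put no lower bound on dim signals, though Aurkb, Cdk1 and Bub1 at least were not well above background in naive. Of the 42 genes this held for Ccne2 alone. Aurkb, Cdk1 and Bub1, which run chromosome segregation and entry into mitosis, were at least 42.6-fold, 68.0-fold and 37.7-fold higher in CD44hi than in naive. As for the 42 genes, none was called between Treg and CD44hi, where their median was -0.95. The difference between the 2 lists was not tested.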

How the data were processed

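RNA of 8 samples was amplified, labelled with Cy3 and hybridized to Agilent arrays, per the labels. Each deposited array file gives the intensity of every spot as read with Feature Extraction 9.5.1.1, without scaling between arrays, per the file headers. Its processed signal is background-subtracted. Its mean and background signals were used for the alternative background correction, and the other measured columns used here are flags. The deposited value table of the authors holds log2 values, with column medians between 6.86 and 6.88, and the submitters' processing notes name limma.

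Outlier spots and the 1639 controls among 45018 spots were left out, and spots of 1 probe were averaged. Processed signals were put on a log2 scale, the 75th percentile of the array was subtracted, and each gene took its brightest probe. A gene was tested if 1 group or more had both arrays well above background (17996 genes). All 6 pairs were compared with limma 3.58.1 in R 4.3.3 (4 residual and 2.62 prior degrees of freedom, 2-sided). Calls used a threshold of 0.05 on p-values adjusted by Benjamini-Hochberg. Errors given after ± are those of limma's fit, except where marked SD. With 2 arrays in each group, exact permutation gives p = 0.333 at the least. The labels do not say whether samples 1 and 2 of a group are separate animals, and the spread behind the p-values may be technical. The code was tested on simulated data. The number of arrays limits the precision.

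The members and lists were chosen with earlier results of these data known. Values of every array are given for the widest, the next 2 widest and the narrowest gene of each role group (widest and narrowest in groups of 3), and for Pcna, added after its values were seen. Other lists are shown by up to 3 genes with the largest called differences in CD44hi against naive. Some genes that went the other way were added after their values were seen. Same-numbered arrays deviated together with correlations between 0.056 and 0.33, and were not treated as pairs. Alternatives tried were normexp background correction (offset 50), quantile and median scaling, the authors' table, other filters, the mean of all probes, replicate and slide blocks, fits of 2 groups, an intensity trend and leaving out each array.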

Additional observations from a re-analysis of the deposited data

How the results depend on the processing

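No called difference of the 42 genes changed sign under any setting run. Of single-gene results under other processing, 2570 kept their side of the threshold, 138 gained a call and 58 lost one; with 1 array left out these were 1871, 47 and 98. In Treg against naive 11 of the 16 calls held under every processing alternative and 9 with any single array left out, and in CD44hi against naive 14 and 13 of 19. In CD44lo against naive 1 gene was called with normexp, with quantile normalization, with no filter on dim probes and with slide as a block (2 in the report). In Treg against CD44lo the count of 9 became 16 with normexp, 17 in the authors' table, 16 with an intensity trend and 0 with no filter on dim probes, under which CD44hi against CD44lo gave 8. In Treg against CD44hi 1 gene was called with quantile normalization, 2 in the authors' table and 1 with an intensity trend. The replicate block, whose numbers did not correlate above 0.1 in every pair, gave 4 calls in CD44lo against naive and 18 in Treg against CD44lo, and moved no other count by over 1.5 times. Leaving out 1 array gave 9 to 20 calls in Treg against naive, 13 to 24 in CD44hi against naive, 1 to 9 in CD44lo against naive, 5 to 24 in CD44hi against CD44lo, 0 to 9 in Treg against CD44lo and 0 to 1 in Treg against CD44hi. With no filter on dim probes more genes entered the adjustment; the cause of the other changes was not tested. A group left with 1 array was assumed to vary like the others. Signal limits Ccne2 in naive cells, where it was not well above background.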
